A study of Mus musculus with 9 samples.

Results

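The 10 genes described here encode lysosomal proteases: the cysteine cathepsins B, C, H, K, L, S and Z (Ctsb, Ctsc, Ctsh, Ctsk, Ctsl, Ctss and Ctsz), the aspartic cathepsin D (Ctsd), the serine carboxypeptidase cathepsin A (Ctsa) and legumain (Lgmn). They were chosen by gene symbol, with earlier results of these data known. All 10 were among the 18042 genes of the deposited table and among the 13090 genes that passed the low-count filter. RNA was sequenced from tumour-associated macrophages, sorted as CD11b+ F4/80+ cells from subcutaneous tumours of MC38, a mouse colon carcinoma cell line, grown in wild-type female C57BL/6 mice aged 6 to 8 weeks at implantation. On day 9 the tumours were injected with IN@OMVs (3 libraries), with OMVs (3 libraries), both at 12.5 µg of vesicle protein per mouse, or with solvent alone as Control (3 libraries). OMVs is the usual abbreviation for outer membrane vesicles, the particles that bacteria shed, but the labels spell out neither OMVs nor IN. The time between injection and harvest, and whether a library came from 1 mouse or from several, are not given in the sources used here. All animals carried tumours of the same line, and no group without a tumour or without an injection was analysed here.

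Cathepsins are made as inactive precursors, tagged with mannose 6-phosphate, carried to acidic endosomes and lysosomes, and activated there by removal of a propeptide. In macrophages they degrade engulfed proteins, cut antigens and the invariant chain that fills the groove of MHC class II molecules, and, when secreted, break down matrix around the cell. Legumain cuts after asparagine and helps to mature several of the cathepsins. Cystatins and some serpins inhibit the cysteine cathepsins.

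Each library held 16813230 to 17288322 expected counts, and levels are given as CPM, the count of a gene relative to the TMM-scaled total of its library. The 10 genes together took 1.55% to 1.84% of all counts in IN@OMVs, 1.43% to 1.81% of those in OMVs and 1.42% to 1.58% of those in Control. Log2 fold changes carry the standard error of an edgeR quasi-likelihood fit over all 13090 genes, and a gene was called at a Benjamini-Hochberg adjusted p under 0.05. The labels call the libraries biological replicates without saying that they came from separate animals, so the p-values measure the spread between these libraries, which may in part be technical.

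The macrophage identity named in the labels was checked on 12 markers, among them Adgre1 (F4/80), Itgam (CD11b), Csf1r and the C1q genes. All 12 were detected in every library, and their summed level ranged from 17327 to 24568 CPM in IN@OMVs, from 17560 to 23358 CPM in OMVs and from 18115 to 20438 CPM in Control. Markers of other cells were also present: 12 fibroblast markers summed to 1757 to 5527 CPM in IN@OMVs, 4071 to 5370 CPM in OMVs and 4963 to 6791 CPM in Control. Of the 8 epithelial markers, which would mark tumour cells, Cldn4 was at 0 in every library, and the sum was 37.0 to 42.3 CPM in IN@OMVs, 45.3 to 51.9 CPM in OMVs and 48.9 to 65.1 CPM in Control. Of the 2 tested, Cdh1 (E-cadherin), which made up most of the sum, fell in IN@OMVs against Control (-0.55 ± 0.11, edgeR adjusted p = 0.0222) and Epcam was not called. The 12 T cell markers summed to 280.3 CPM in IN@OMVs 1, 250.1 CPM in OMVs 1 and 290.0 CPM in Control 1, against 55.7 to 124 CPM in the other 6 libraries.

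Before the fold changes, 2 libraries need to be set apart. IN@OMVs 1 had the highest level of its group for 8 of the 10 genes, all but Ctsk and Ctsl, and OMVs 3 had the highest level of its group for 10 of 10. The summed level of the 10 genes was 19497, 15216 and 15482 CPM in IN@OMVs 1, 2 and 3, 14026.5, 15022 and 18657.5 CPM in OMVs 1, 2 and 3, and 14232, 14726 and 15763 CPM in Control 1, 2 and 3. The same 2 libraries had the highest macrophage marker sums, 24568 CPM in IN@OMVs 1 and 23358 CPM in OMVs 3, against 17327 to 20438 CPM in the other 7. IN@OMVs 1 also had the lowest fibroblast sum. The part of these library differences in the cathepsin levels was not tested, but the comparisons below are given with and without them where that changed a call or a direction.

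**Figure D1:**
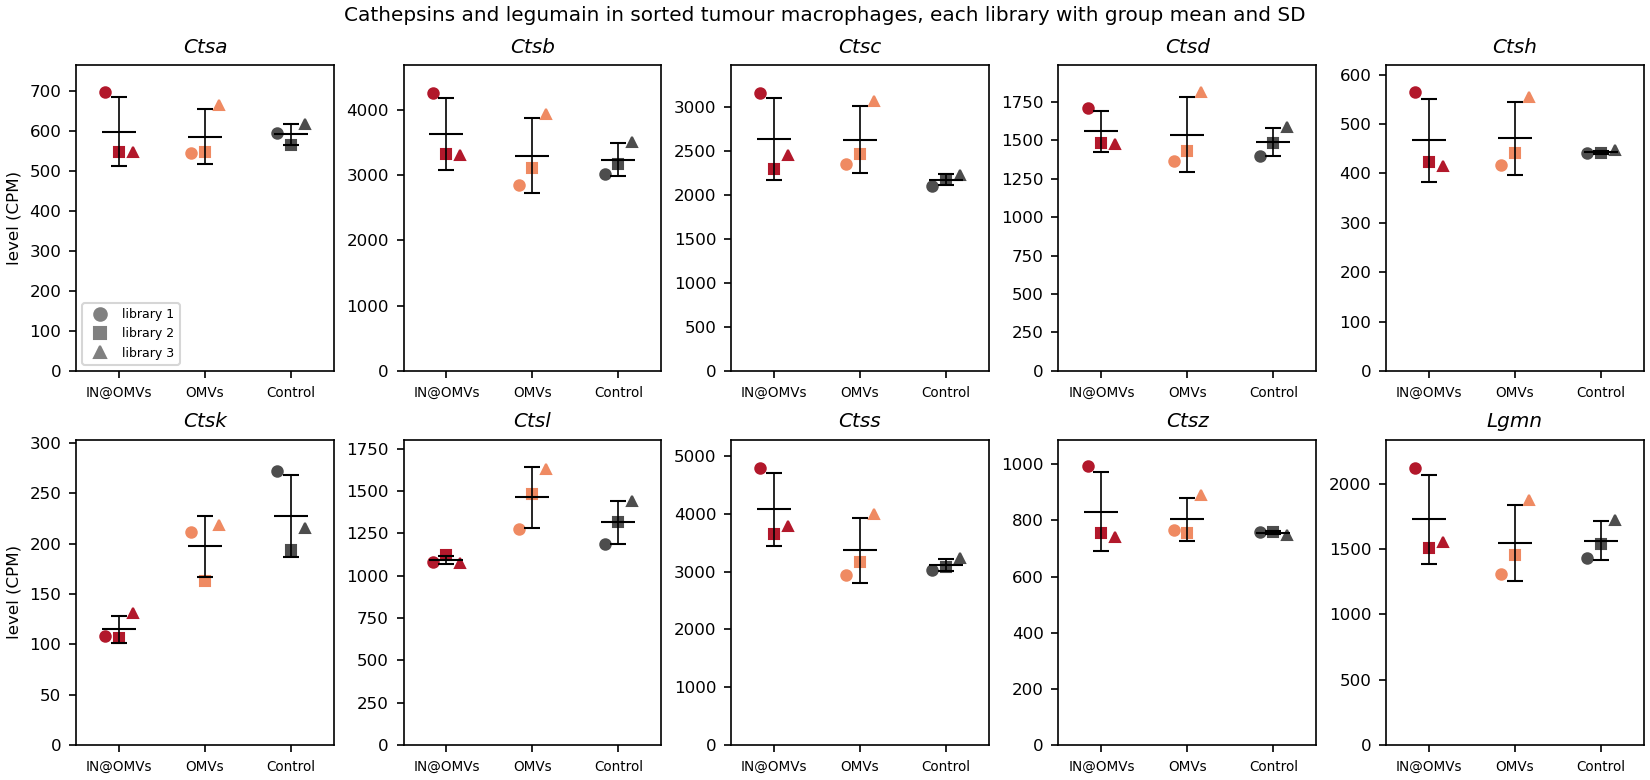
Level of each of the 10 genes in CPM (y axis, from 0) in every library of IN@OMVs, OMVs and Control. Points are libraries 1 (circle), 2 (square) and 3 (triangle), and bars are the mean and SD of 3 libraries. Ctsk lies at 106 to 131 CPM in IN@OMVs, below all OMVs libraries (163 to 219 CPM) and all Control libraries (194 to 272 CPM), while most other genes overlap between groups.

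Cathepsin K was the gene that edgeR called. Ctsk, a cysteine protease that cleaves collagen and elastin and is best known from osteoclasts, lies on mouse chromosome 3, with Ctss as its next neighbour in the RefSeq gene order. The 250 bases before each RefSeq start are shown because these adjacent genes gave fitted differences of opposite sign in the comparison of IN@OMVs with Control, although only that of Ctsk was called. The sequences are the plus strand of GRCm38.p6, chr3:95498960-95499209 for Ctsk and chr3:95526536-95526785 for Ctss, and the capitals mark GAGGAA on either strand (the core bound by the myeloid factor PU.1) and, in Ctss, GAAA followed after 2 bases of any kind by GAAA (an interferon-response type of repeat, on either strand).
Ctsk: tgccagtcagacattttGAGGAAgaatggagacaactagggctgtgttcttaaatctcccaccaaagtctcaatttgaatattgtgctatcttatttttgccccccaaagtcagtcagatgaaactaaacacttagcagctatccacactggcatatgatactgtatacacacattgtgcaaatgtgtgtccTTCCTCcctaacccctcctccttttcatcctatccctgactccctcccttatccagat
Ctss: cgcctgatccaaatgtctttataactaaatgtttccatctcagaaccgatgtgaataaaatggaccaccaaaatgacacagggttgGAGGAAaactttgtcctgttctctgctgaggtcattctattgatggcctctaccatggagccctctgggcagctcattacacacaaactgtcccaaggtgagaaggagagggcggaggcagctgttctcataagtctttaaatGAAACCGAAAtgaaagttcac
In the Ctsk window GAGGAA was found at -233 to -228 and, on the other strand, at -58 to -53, counted back from the start. In the Ctss window it was found at -164 to -159, and the spaced GAAA repeat at -21 to -12. These matches do not overlap each other. GAGGAA occurs in 23.3% of the 32851 promoter windows of the table and the spaced GAAA repeat in 2.98%, so the matches are descriptions of these letters and not evidence of binding. The first GENCODE M21 start of Ctsk lies 46 bases further downstream, and that of Ctss is at the RefSeq start.

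Ctsk stood at 108, 106 and 131 CPM in IN@OMVs 1, 2 and 3, against 211, 163 and 219 CPM in OMVs 1, 2 and 3 and 272, 194 and 216 CPM in Control 1, 2 and 3. All 3 IN@OMVs libraries lay below every other library, while OMVs and Control overlapped. The mean was 115 ± 13.7 CPM in IN@OMVs, 197 ± 30.3 CPM in OMVs and 227 ± 40.4 CPM in Control (SD, n = 3 each).

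Against Control, Ctsk fell by 0.99 ± 0.15 on the log2 scale in IN@OMVs (95% interval -1.33 to -0.64, edgeR adjusted p = 0.0061), a level 1.98-fold lower. Against OMVs, which received the same dose of vesicle protein, it fell by 0.78 ± 0.15 in IN@OMVs (95% interval -1.13 to -0.43, edgeR adjusted p = 0.0307), a level 1.72-fold lower. In OMVs against Control the difference was -0.20 ± 0.15 (95% interval -0.55 to 0.14, edgeR adjusted p = 0.844). The call against Control was kept when any single library was left out. The call against OMVs was lost when IN@OMVs 2, IN@OMVs 3, OMVs 1, OMVs 3 or Control 3 was left out, with adjusted p from 0.0554 to 0.12 (edgeR), and the difference then ranged from -0.89 to -0.70.

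Ctsk was the only one of the 10 genes that edgeR called in either comparison. That is 1 of 10 for IN@OMVs against Control, where 6.55% of all genes tested were called, 3.32% higher and 3.24% lower. For IN@OMVs against OMVs it is also 1 of 10, beside 2.85% of all genes, 1.1% higher and 1.75% lower. In OMVs against Control 0 of the 10 genes were called by edgeR, DESeq2 or limma-voom, beside 0.42% of all genes, 0.298% higher and 0.122% lower. In that comparison 0 of the 10 had an unadjusted p under 0.05 in edgeR, 1 in DESeq2 and 0 in limma-voom, beside 1105 of all 13090 genes in edgeR. With counts this small, the shares of the 10 genes cannot be read as different from the background.

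Because these are bulk libraries, fewer cells with Ctsk RNA and less Ctsk RNA per cell cannot be told apart. Some markers of other myeloid cells were also lower in IN@OMVs. The 12 neutrophil markers summed to 130 to 197 CPM in IN@OMVs, 564 to 749 CPM in OMVs and 790 to 1159 CPM in Control. Of the 10 neutrophil markers tested, 9 fell in IN@OMVs against Control and 9 against OMVs. Of the 9 monocyte markers, 7 fell in IN@OMVs against Control and 4 against OMVs. In OMVs against Control, where Ctsk was not called, 3 of them fell. Their sums were 785 to 1103 CPM in IN@OMVs, 1053 to 1284 CPM in OMVs and 1584 to 1971 CPM in Control. The monocyte marker Ly6c2 was not called, with estimates in IN@OMVs of 0.39 ± 0.23 against Control and 0.35 ± 0.23 against OMVs. Of 10 conventional dendritic cell markers, 2 rose in IN@OMVs against Control and 1 against OMVs. The part of any of these cell types in the Ctsk result was not tested. Fibroblasts also express Ctsk. Of the 12 fibroblast markers, 0 were called in IN@OMVs against Control, but only 2 estimates were above 0, with a median of -0.43. Against OMVs 2 were also above 0, with a median of -0.25. Col3a1 was a large part of the fibroblast sum, with 2389 ± 1143 CPM in IN@OMVs and 3229 ± 245 CPM in Control. IN@OMVs 2 and 3 had fibroblast sums of 5527 and 5456 CPM, within the range of the Control libraries, and Ctsk was at 106 and 131 CPM there. Without IN@OMVs 1, the library with the low fibroblast sum, the Ctsk difference from Control was -0.95 ± 0.17 (edgeR adjusted p = 0.00475). The part of fibroblasts was not tested. Nor was that of whatever lies behind the lower epithelial marker sum in IN@OMVs, which was mostly Cdh1.

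Acp5, the tartrate-resistant acid phosphatase that accompanies cathepsin K in osteoclasts, was on an osteoclast marker list and is named here after its values were seen. It stood at 122, 92.4 and 97.3 CPM in IN@OMVs 1, 2 and 3, 235, 178 and 240 CPM in OMVs 1, 2 and 3, and 262, 219 and 223 CPM in Control 1, 2 and 3. As with Ctsk, the IN@OMVs libraries lay below all others. The difference was -1.18 ± 0.14 against Control (edgeR adjusted p = 0.0016) and -1.07 ± 0.14 against OMVs (edgeR adjusted p = 0.00507). Of the 5 osteoclast markers tested, Acp5 alone was called in each comparison with IN@OMVs, also with any 1 library left out, and Nfatc1, Dcstamp, Ocstamp and Oscar were not. Of the 5 estimates 0 were above 0, with medians of -0.63 against Control and -0.42 against OMVs. Oscar, at 1.30 CPM in IN@OMVs, had estimates of -0.76 ± 0.32 against Control and -1.08 ± 0.32 against OMVs. That of Ocstamp against Control was -0.63 ± 0.21.

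Over the 9 libraries, the genes whose levels ran most like Ctsk were Zswim4, F10 and Mcemp1, by the root mean square difference of centred log2 CPM among 7840 other genes with a mean of at least 20 CPM. The root mean square difference from Ctsk was 0.153 for Zswim4, 0.16 for F10, which encodes coagulation factor X, and 0.16 for Mcemp1, a mast cell and myeloid membrane protein. Zswim4 averaged 29.8 ± 0.681 CPM in IN@OMVs, 46.5 ± 2.81 CPM in OMVs and 50.4 ± 5.71 CPM in Control (SD, n = 3 each). F10 averaged 106 ± 7.05 CPM in IN@OMVs, 175 ± 18.6 CPM in OMVs and 179 ± 25.7 CPM in Control. Mcemp1 averaged 26.0 ± 2.15 CPM in IN@OMVs, 45.0 ± 3.09 CPM in OMVs and 54.6 ± 9.58 CPM in Control. Each was low in IN@OMVs and close in the other groups, as the choice by likeness requires.

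**Figure D2:**
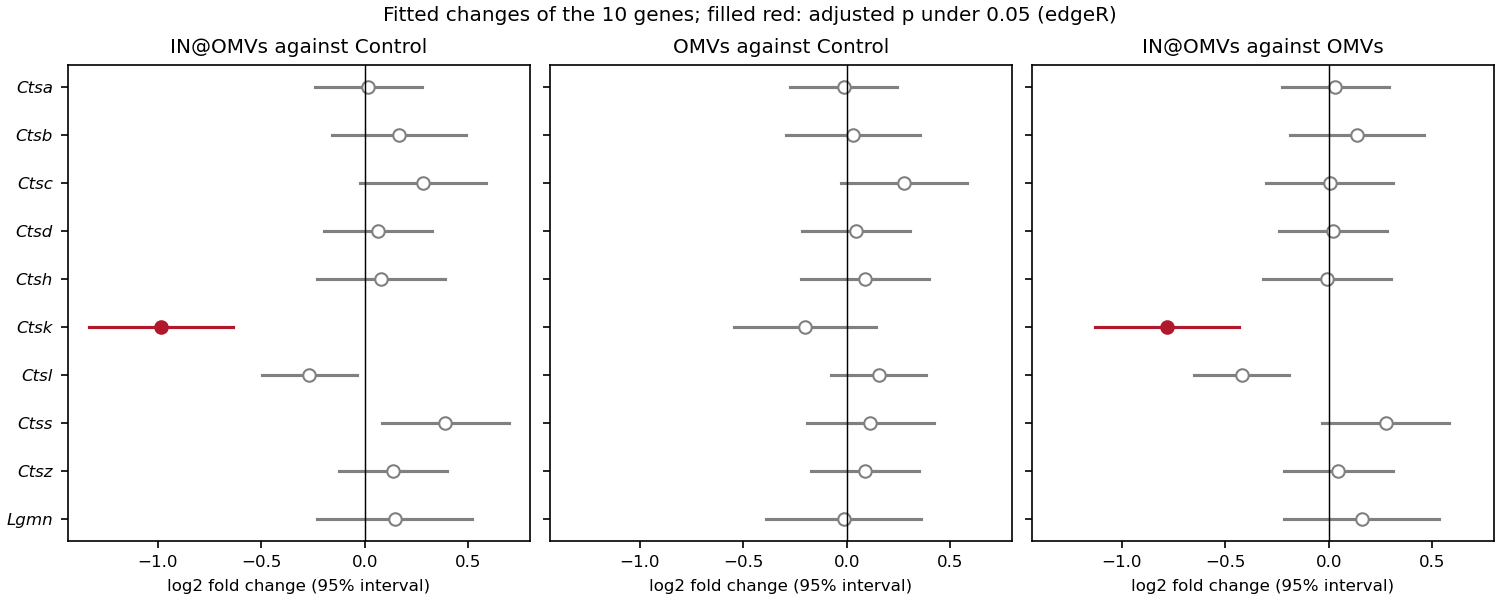
Fitted log2 fold changes (x axis) of the 10 genes (rows) for IN@OMVs against Control, OMVs against Control and IN@OMVs against OMVs. Points are estimates, lines are 95% intervals, and filled red points have an edgeR adjusted p under 0.05. Ctsk is the only filled point, at -0.99 in the first panel and -0.78 in the third, and the intervals of Ctsl and Ctss in the first panel do not reach 0 although neither gene was called.

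Cathepsin L and cathepsin S, the cysteine endopeptidases known to cut the invariant chain, had estimates of opposite sign. Ctsl, which is best known for this in thymic epithelium and also acts as a general lysosomal protease, stood at 1080.4, 1123 and 1076 CPM in IN@OMVs 1, 2 and 3, 1276, 1481 and 1633 CPM in OMVs 1, 2 and 3, and 1189, 1316 and 1443 CPM in Control 1, 2 and 3. All 3 IN@OMVs libraries lay below every OMVs and Control library. The difference against OMVs was -0.42 ± 0.10 (95% interval -0.65 to -0.19, edgeR adjusted p = 0.0693) and that against Control was -0.27 ± 0.10 (edgeR adjusted p = 0.178), so neither was called. DESeq2 called the difference between IN@OMVs and OMVs (-0.42, adjusted p = 0.0024).

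Ctss, the main invariant chain protease of macrophages and dendritic cells, stood at 4793, 3647 and 3784 CPM in IN@OMVs 1, 2 and 3, 2936, 3170.3 and 3995 CPM in OMVs 1, 2 and 3, and 3024, 3082 and 3239 CPM in Control 1, 2 and 3. Every IN@OMVs library was above every Control library, but OMVs 3 was above both IN@OMVs 2 and IN@OMVs 3. The difference against Control was 0.39 ± 0.14 (95% interval 0.08 to 0.69, edgeR adjusted p = 0.147) and against OMVs 0.28 ± 0.14 (edgeR adjusted p = 0.413), neither of them called. With IN@OMVs 1 and OMVs 3 both left out, an alternative chosen after seeing these levels, Ctss was called higher in IN@OMVs than in Control by 0.26 ± 0.05 (edgeR adjusted p = 0.00455) and than in OMVs by 0.28 ± 0.05 (edgeR adjusted p = 0.00912). Each of these libraries held the highest Ctss level of its group. Leaving them out therefore narrows the spread, and these adjusted p-values cannot serve as a test of Ctss. Over all genes that fit gave 2416 calls against Control and 898 against OMVs, beside 858 and 373 with all libraries. In OMVs against Control the difference was 0.11 ± 0.14 (edgeR adjusted p = 0.944).

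Within-library proportions take out the overall height of the 10 genes in a library. These proportions were chosen after the levels were seen and are given without a test. Ctss made up 24.0% to 24.6% of the summed CPM of the 10 genes in IN@OMVs, against 20.9% to 21.4% in OMVs and 20.5% to 21.2% in Control, so the IN@OMVs libraries, including IN@OMVs 1, lay close together and apart from the rest. Ctsl made up 6.62% ± 0.961 in IN@OMVs, against 9.24% ± 0.567 in OMVs and 8.82% ± 0.416 in Control (SD, n = 3 each). Ctsk made up 0.698% ± 0.145 in IN@OMVs, against 1.25% ± 0.222 in OMVs and 1.53% ± 0.33 in Control.

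The ratio of Ctss to Ctsl in CPM was 4.44, 3.25 and 3.52 in IN@OMVs 1, 2 and 3, 2.30, 2.14 and 2.45 in OMVs 1, 2 and 3, and 2.54, 2.34 and 2.24 in Control 1, 2 and 3. No IN@OMVs library overlapped the other groups. The ratio of Ctss to Ctsk was 35.9 ± 7.84 in IN@OMVs, against 17.2 ± 2.93 in OMVs and 14.0 ± 2.55 in Control (SD, n = 3 each). A ratio within a library shows that the genes differed unequally, not which of them moved.

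**Figure D3:**
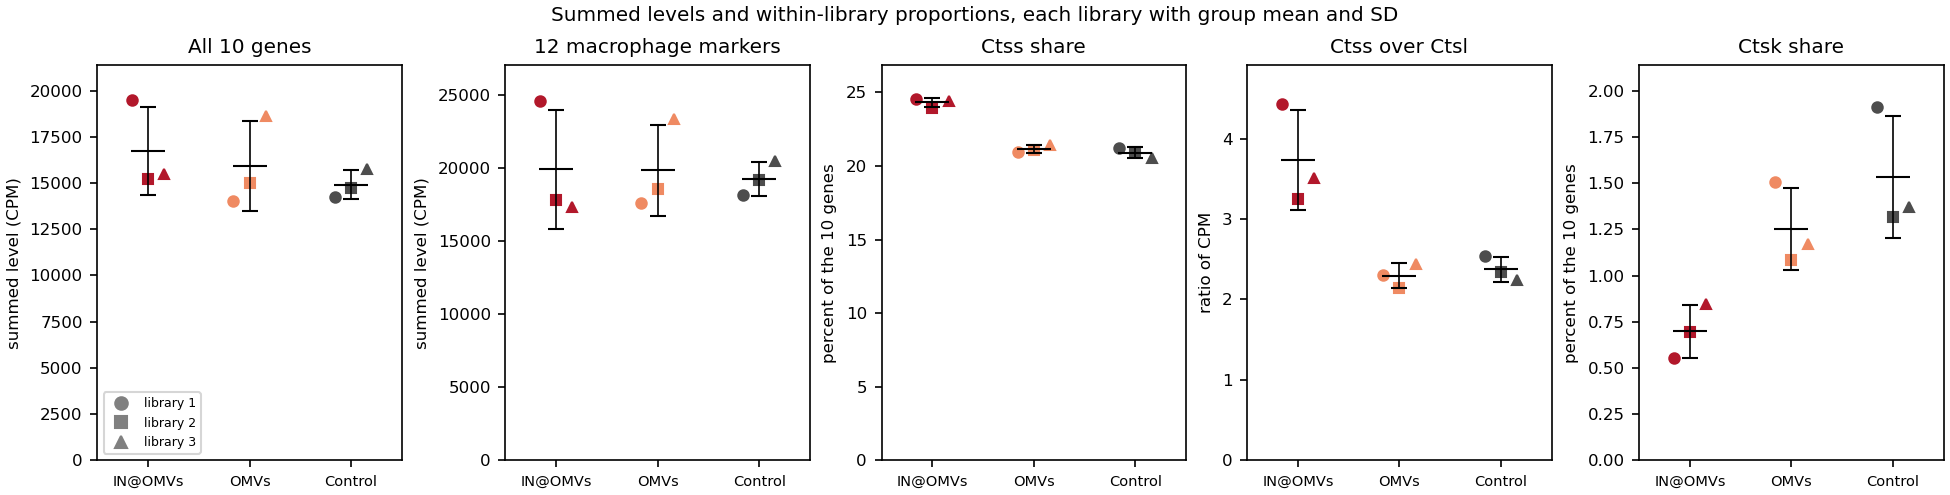
Summed CPM of the 10 genes and of 12 macrophage markers, the share of the 10 genes' CPM held by Ctss, the ratio of Ctss to Ctsl and the share held by Ctsk (y axes, from 0) in each library of IN@OMVs, OMVs and Control, with mean and SD of 3 libraries. IN@OMVs 1 (19497 CPM) and OMVs 3 (18657.5 CPM) are highest in the first panel and again among the macrophage markers, whereas the Ctss share is 24.0% to 24.6% in all 3 IN@OMVs libraries and at most 21.4% elsewhere.

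Cathepsin C, a dipeptidyl peptidase that activates the serine proteases of neutrophil, mast cell and lymphocyte granules, was the gene with separate levels in both vesicle groups against Control. Ctsc stood at 3169.7, 2302 and 2454 CPM in IN@OMVs 1, 2 and 3, 2361, 2470.3 and 3069 CPM in OMVs 1, 2 and 3, and 2109, 2181 and 2235 CPM in Control 1, 2 and 3. All 6 vesicle libraries lay above all 3 Control libraries. The difference from Control was 0.28 ± 0.14 in IN@OMVs (95% interval -0.03 to 0.59, edgeR adjusted p = 0.3) and 0.28 ± 0.14 in OMVs (95% interval -0.03 to 0.58, edgeR adjusted p = 0.662), neither called. The comparisons share the Control libraries. Between IN@OMVs and OMVs the difference was 0.00 ± 0.14 (95% interval -0.30 to 0.31). Groups that do not overlap were common among all genes: 25.9% in IN@OMVs against Control, beside 4 of the 10 (Ctsc and Ctss above, Ctsk and Ctsl below), 19.8% in OMVs against Control, beside 1 of 10 (Ctsc), and 17.6% in IN@OMVs against OMVs, beside 2 of 10 (Ctsk and Ctsl). By direction these background shares were 13.3% above and 12.5% below in IN@OMVs against Control, 9.89% above and 9.89% below in OMVs against Control, and 8.86% above and 8.72% below in IN@OMVs against OMVs.

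The remaining cysteine cathepsins did not separate the groups. Ctsb, an endopeptidase and dipeptidyl carboxypeptidase, stood at 4259, 3320.5 and 3303 CPM in IN@OMVs 1, 2 and 3, 2841, 3112 and 3943 CPM in OMVs 1, 2 and 3, and 3015, 3173 and 3509.9 CPM in Control 1, 2 and 3, with IN@OMVs 1 and OMVs 3 highest. Its difference from Control was 0.17 ± 0.14 in IN@OMVs (95% interval -0.16 to 0.49, edgeR adjusted p = 0.592). Ctsh, an aminopeptidase, averaged 467 ± 83.9 CPM in IN@OMVs, 471 ± 73.6 CPM in OMVs and 443 ± 3.17 CPM in Control (SD, n = 3 each). Ctsz, a carboxypeptidase, averaged 830.2 ± 141 CPM in IN@OMVs, 804 ± 76.3 CPM in OMVs and 756 ± 5.48 CPM in Control. Ctsh and Ctsz differed from Control by 0.08 ± 0.14 (95% interval -0.23 to 0.39) and 0.14 ± 0.12 (95% interval -0.13 to 0.40) in IN@OMVs. The 3 Control libraries agreed closely in both genes, and the spread came from IN@OMVs 1 and OMVs 3.

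Outside the cysteine cathepsins the estimates were small. Ctsd, the main aspartic protease of lysosomes, stood at 1711, 1485 and 1478 CPM in IN@OMVs 1, 2 and 3, 1363, 1428 and 1815 CPM in OMVs 1, 2 and 3, and 1401, 1480.5 and 1585 CPM in Control 1, 2 and 3, and the groups overlapped. It differed from Control by 0.07 ± 0.12 in IN@OMVs (95% interval -0.20 to 0.33). Ctsa, which also protects lysosomal beta-galactosidase and neuraminidase from degradation, averaged 599 ± 86.7 CPM in IN@OMVs, 586 ± 68.9 CPM in OMVs and 592 ± 26.3 CPM in Control (SD, n = 3 each), a difference of 0.02 ± 0.11 from Control in IN@OMVs (95% interval -0.24 to 0.27). Lgmn, the asparaginyl endopeptidase, averaged 1726 ± 342 CPM in IN@OMVs, 1545 ± 292 CPM in OMVs and 1562 ± 149 CPM in Control, a difference of 0.14 ± 0.17 from Control in IN@OMVs (95% interval -0.23 to 0.52). Ctsa and Ctsb had fractional counts in all 9 libraries, which means that some of their reads also matched elsewhere, whereas the other 8 genes had whole counts throughout.

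Over the 10 genes, 8 estimates were above 0 for IN@OMVs against Control, with a median of 0.11 beside a median of 0.00 over all genes tested. Those of Ctsa, Ctsd, Ctsh, Ctsz and Lgmn turned negative without IN@OMVs 1, at the lowest -0.11 for Ctsa. For OMVs against Control, 7 of 10 were above 0, and for IN@OMVs against OMVs also 7 of 10, with a median of 0.03. Ctsb, Ctsd, Ctsh and Ctss turned negative in OMVs against Control without OMVs 3.

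Levels of different genes were compared per kilobase of transcript, using the shortest principal transcript of GENCODE M21. On this scale Ctss was highest in every group, at 3007 ± 462 CPM per kilobase in IN@OMVs, against 2485 ± 411 in OMVs and 2299 ± 82.3 in Control (SD, n = 3 each), apart from the next gene in all libraries. Ctsc and Lgmn came next and overlapped each other in every group. Ctsd, Ctsb, Ctsl and Ctsz followed in an order that changed with the group, and Ctsl, with 555 ± 13.2 CPM per kilobase in IN@OMVs, against 742 ± 90.9 in OMVs and 668 ± 64.6 in Control, stood below Ctsz by its mean in IN@OMVs, where their libraries overlapped, and above it in OMVs and Control. Ctsh and Ctsa were lower still. Ctsk was lowest, with 70.0 to 86.4 CPM per kilobase in IN@OMVs, against 108 to 145 in OMVs and 128 to 180.0 in Control, and overlapped Ctsa in Control but not in IN@OMVs or OMVs. Per kilobase of coding length, Ctsb (3179) stood above Ctss (3054) in Control, so the first place there depends on which length is used. In IN@OMVs and OMVs Ctsb (3567 and 3244) then stood between Ctss and Ctsc (1906 and 1900). Lgmn moved from place 3 to place 4 in IN@OMVs and to place 6 in OMVs and Control. The Ctsb transcript used has 4743 bases, of which 1017 are coding, so its place depends on the length used in every group.

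Other genes of the lysosome were read from 8 lists, and a list of cystatins, serpins and other protease inhibitors is given first. Whether each of these, Serpinb9 among them, inhibits any of the 10 proteases was not examined. The counts of each list stand beside 6.55% of all genes tested that were called in IN@OMVs against Control (3.32% higher, 3.24% lower) and 2.85% in IN@OMVs against OMVs. Because the lists were chosen with earlier results of these data known, a share above the background is a description and not an independent test of a list. Cst3, the secreted inhibitor cystatin C, averaged 864 ± 184 CPM in IN@OMVs, 658 ± 46.1 CPM in OMVs and 688 ± 60.9 CPM in Control (SD, n = 3 each) and was not called (edgeR adjusted p = 0.232 for IN@OMVs against Control). Cst3 and Cstb are named although they are outside the rule for named genes. Cstb, the intracellular cystatin B, averaged 219 ± 33.7 CPM in IN@OMVs, 207 ± 22.0 CPM in OMVs and 206 ± 7.8 CPM in Control and was not called. Of 11 protease inhibitors tested, 1 rose and 2 fell in IN@OMVs against Control, with a median of -0.10. Serpinb9, an intracellular serpin, rose by 0.58 ± 0.14 (edgeR adjusted p = 0.0413), with 43.0, 38.3 and 41.8 CPM in IN@OMVs 1, 2 and 3 and 33.0, 24.0 and 25.4 CPM in Control 1, 2 and 3. Those that fell were the stefin genes Stfa2l1 (-2.02 ± 0.43, edgeR adjusted p = 0.0249) and Stfa2. Stfa2 had 1, 1 and 0 counts in IN@OMVs 1, 2 and 3, 16, 10 and 14 in OMVs 1, 2 and 3, and 16, 5 and 10 in Control 1, 2 and 3. Stefin genes are near-identical copies among which reads can be split, although the deposited counts of both were whole in all 9 libraries. Mouse stefin A genes are known from neutrophils, whose markers also fell, and the part of neutrophils or of read assignment in these counts was not tested. Both were also lower in IN@OMVs than in OMVs, the 2 inhibitors of 11 called there. The calls against Control were lost without IN@OMVs 2 or 3 and, for the stefins, without Control 1 or 3 (adjusted p up to 0.0898, edgeR), for Serpinb9 without OMVs 3, Control 2 or Control 3 (up to 0.167). Against OMVs the stefin calls were lost without IN@OMVs 2, IN@OMVs 3, OMVs 1 or OMVs 3.

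The next list holds genes of the sorting of proteins to the lysosome together with related receptors, among them Sorl1 and Lrp1. Of 14 genes tested, 4 fell in IN@OMVs against Control (2 with the replicate number as a block), beside 3.24% of all genes, and 10 were not called. The median was -0.09. Sort1, sortilin, a sorting receptor for lysosomal proteins that needs no mannose 6-phosphate, stood at 12.99, 10.2 and 10.2 CPM in IN@OMVs 1, 2 and 3, 19.5, 18.2 and 21.9 CPM in OMVs 1, 2 and 3, and 24.6, 21.2 and 18.9 CPM in Control 1, 2 and 3. It fell by 0.95 ± 0.14 against Control (edgeR adjusted p = 0.00397) and by 0.83 ± 0.14 against OMVs (edgeR adjusted p = 0.0136). Sorl1, a related sorting receptor, fell by 1.04 ± 0.18 against Control (edgeR adjusted p = 0.00929). Lrp1, an endocytic receptor that takes up secreted proteases, fell by 0.26 ± 0.06 (edgeR adjusted p = 0.0234, and 0.0723 with the block). Igf2r, the large mannose 6-phosphate receptor and the gene outside the rule among these 4, averaged 170.3 ± 4.49 CPM in IN@OMVs, 209 ± 7.98 CPM in OMVs and 201 ± 7.32 CPM in Control, and fell by 0.24 ± 0.05 against Control (edgeR adjusted p = 0.0308, and 0.0611 with the block) and by 0.30 ± 0.05 against OMVs (edgeR adjusted p = 0.0198). M6pr, the small mannose 6-phosphate receptor, also named outside the rule, averaged 490.4 ± 84.4 CPM in IN@OMVs, 504 ± 50.2 CPM in OMVs and 492 ± 12.1 CPM in Control and was not called. Sort1 and Sorl1 were called against Control with any 1 library left out. The calls of Lrp1 and Igf2r against Control were lost without IN@OMVs 2, IN@OMVs 3 or any 1 Control library, and that of Lrp1 also without OMVs 2 (adjusted p up to 0.134, edgeR). Against OMVs, Sort1 was lost without IN@OMVs 2, IN@OMVs 3 or OMVs 3 and Igf2r without IN@OMVs 3, OMVs 1 or OMVs 3 (up to 0.0829).

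Among other hydrolases, 1 of 13 proteases and 2 of 30 other enzymes were called in IN@OMVs against Control, shares near the 6.55% of all genes. Of 13 further lysosomal and granule proteases, 1 rose in IN@OMVs against Control: Scpep1, a serine carboxypeptidase, averaged 349 ± 12.4 CPM in IN@OMVs and 273 ± 4.98 CPM in Control and rose by 0.35 ± 0.08 (edgeR adjusted p = 0.0277, and 0.0558 with the block). Of 30 glycosidases, lipases and sulfatases, Hgsnat, an acetyltransferase of heparan sulfate breakdown, rose by 0.38 ± 0.09 (edgeR adjusted p = 0.0441, and 0.0824 with the block), and Sgsh, a sulfatase of the same pathway, fell by 0.38 ± 0.08 (edgeR adjusted p = 0.02). With the block the counts were 1 higher and 1 lower of the 13, and 1 lower of the 30. All 3 calls were lost without IN@OMVs 3 or any 1 Control library, those of Scpep1 and Sgsh also without IN@OMVs 2 and those of Scpep1 and Hgsnat without OMVs 2 (adjusted p up to 0.173, edgeR). In the comparison with OMVs, 0 of these 13 genes were called by edgeR, DESeq2 or limma-voom, with 2 at an unadjusted p under 0.05 (edgeR). Of the 30, edgeR and limma-voom called 0 there and DESeq2 1, with 3 at an unadjusted p under 0.05 (edgeR). Over all genes, 1879 of 13090 had an unadjusted p under 0.05 (edgeR) in that comparison. The medians for IN@OMVs against Control were 0.09 and 0.08, and both became -0.04 without IN@OMVs 1.

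Membrane and acidification genes follow. Of 27 lysosomal membrane proteins, 2 rose in IN@OMVs against Control, with a median of 0.10. Gpnmb, a lysosomal glycoprotein of phagocytes, stood at 67.9, 93.3 and 92.1 CPM in IN@OMVs 1, 2 and 3, 58.0, 68.0 and 74.1 CPM in OMVs 1, 2 and 3, and 36.5, 41.2 and 40.6 CPM in Control 1, 2 and 3, and every vesicle library lay above every Control library. It rose by 1.10 ± 0.13 in IN@OMVs (edgeR adjusted p = 0.0016). Clcn7, a chloride transporter of lysosomes, rose by 0.40 ± 0.10 (edgeR adjusted p = 0.0425, and 0.0536 with the block). In the comparison with OMVs, Ctns, the cystine exporter, was the 1 of 27 called and was higher by 0.44 ± 0.09 (edgeR adjusted p = 0.0445, and 0.0989 with the block). The call of Gpnmb was kept with any 1 library left out. That of Clcn7 was lost without IN@OMVs 3 or any 1 library of OMVs or Control, and that of Ctns without any 1 library except IN@OMVs 1 (adjusted p up to 0.183, edgeR). Of 19 V-ATPase subunits, which pump protons into the lysosome, 0 were called in any comparison by edgeR, DESeq2 or limma-voom. At an unadjusted p under 0.05 (edgeR), 2 subunits passed when IN@OMVs was set against Control, beside 2594 of all 13090 genes, and 0 in each of the other comparisons. They had a median of 0.05 for IN@OMVs against Control and of -0.07 without IN@OMVs 1, where 1 subunit was called lower.

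The MiT/TFE transcription factors, which switch on many lysosomal genes through CACGTG elements, were not called: Tfeb averaged 22.5 ± 4.29 CPM in IN@OMVs, 20.2 ± 1.77 CPM in OMVs and 20.1 ± 2.88 CPM in Control (SD, n = 3 each), and Tfe3, Mitf and Tfec were not called either. Of 20 genes of this list, which also holds the hypoxia factor gene Hif1a, 4 rose and 1, Hif1a, fell in IN@OMVs against Control. Flcn and Fnip1, which encode the folliculin complex, and Rragc, a Rag GTPase that it acts on, were among those that rose. Flcn rose by 0.36 ± 0.06 (edgeR adjusted p = 0.00731), Rragc by 0.28 ± 0.05 (edgeR adjusted p = 0.0169) and Fnip1, named outside the rule, by 0.29 ± 0.07 (edgeR adjusted p = 0.0383, and 0.0552 with the block). Hif1a, the hypoxia factor, fell by 0.49 ± 0.11 (edgeR adjusted p = 0.0298, and 0.0613 with the block, which left 2 rising and 0 falling). Against OMVs, Flcn was higher by 0.28 ± 0.06 and Rragc by 0.27 ± 0.05, and Hif1a was lower by 0.64 ± 0.11 (edgeR adjusted p = 0.0448, 0.0348 and 0.016). With the block these adjusted p were 0.0981, 0.0679 and 0.0423 (edgeR). The call of Flcn against Control was kept with any 1 library left out, whereas those of Rragc, Fnip1 and Hif1a were lost without IN@OMVs 3 or any 1 Control library, and that of Hif1a also without IN@OMVs 2 or OMVs 2 and that of Fnip1 without OMVs 2 (adjusted p up to 0.147, edgeR). Against OMVs, Hif1a was lost without IN@OMVs 2, IN@OMVs 3, OMVs 2 or OMVs 3, Rragc without any 1 library except IN@OMVs 1, and Flcn without any 1 except IN@OMVs 1 and OMVs 2 (up to 0.176).

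Class II molecules present the peptides that cathepsins cut. Of 13 genes of the invariant chain and class II loading list, 7 rose in IN@OMVs against Control, with and without the block, with a median of 0.71 (0.52 without IN@OMVs 1). Ciita, the class II transactivator, rose by 0.89 ± 0.12 (edgeR adjusted p = 0.00238), H2-DMb1, a peptide-loading subunit, by 0.75 ± 0.12 (edgeR adjusted p = 0.00638) and H2-Aa, a class II alpha chain, by 0.86 ± 0.14 (edgeR adjusted p = 0.00678). Cd74, the invariant chain that cathepsin S cuts, named outside the rule, averaged 5745 ± 1266 CPM in IN@OMVs, 4453 ± 404 CPM in OMVs and 3486 ± 152 CPM in Control (SD, n = 3 each) and rose by 0.72 ± 0.14 against Control (edgeR adjusted p = 0.0191, lost without any 1 Control library, up to 0.102). The other 3 calls were kept with any 1 library left out. In IN@OMVs against OMVs, edgeR and limma-voom called 0 of the 13 and DESeq2 5, with a median of 0.41. At an unadjusted p under 0.05 (edgeR) 8 of the 13 passed, beside 1879 of all 13090 genes. Without IN@OMVs 1 edgeR called 3 of them, and without IN@OMVs 2 it called 1. In OMVs against Control, edgeR and limma-voom called 0 genes over the 8 lists and DESeq2 1 (Gpnmb). At an unadjusted p under 0.05 (edgeR) 13 passed there, beside 1105 of all 13090 genes.

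**Figure D4:**
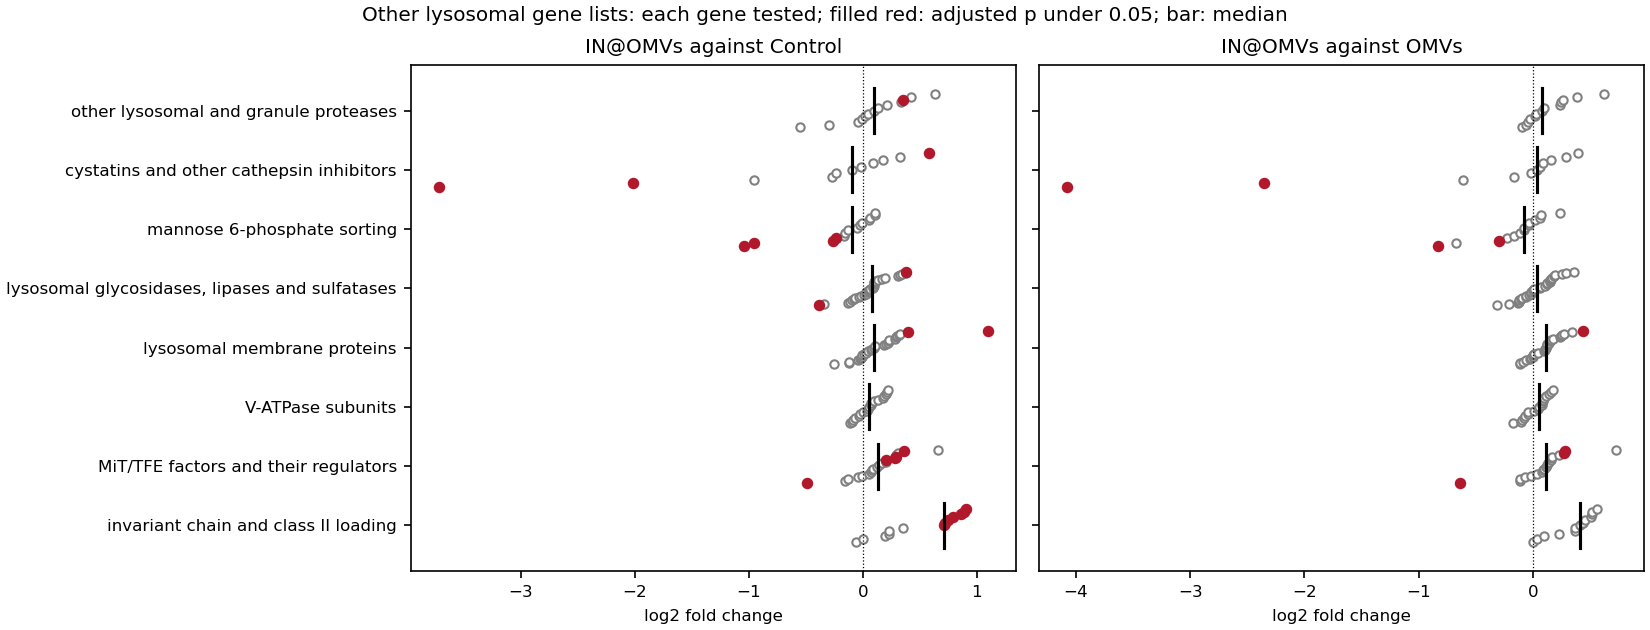
Log2 fold change (x axis) of every gene tested in 8 lists of lysosomal genes (rows), for IN@OMVs against Control and IN@OMVs against OMVs. Each point is a gene, filled red points have an edgeR adjusted p under 0.05, and black bars are list medians. The medians lie between -0.10 and 0.13 in the first panel except for the invariant chain and class II list at 0.71, and the points furthest left are the low-count stefin genes Stfa2 and Stfa2l1.

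CACGTG, the element read by the MiT/TFE factors, was searched in the 250 bases before the RefSeq starts of the 10 genes together with the longer form that has GT before and AC after it, TTCNNNGAA and TGANTCA. The table holds 10 windows for 8 of the genes, and Ctsb and Ctsh have none. CACGTG was found in 4 of the 10 windows, those of Ctsa, Ctsd, Lgmn and Ctsl, beside 6.02% of all windows, the longer form in 0, beside 0.24%, TTCNNNGAA in 1 (Ctsc), beside 7.02%, and TGANTCA in 0, beside 6.75%. Ctsa and Lgmn each also had a window without CACGTG. The bases after the Lgmn window with CACGTG were not found near the beginning of a GENCODE M21 transcript of the gene, whereas those after its other window were. The windows of Ctsk, Ctss, Ctsc and Ctsz held no CACGTG, which says only that these letters are not in these windows.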

How the data were processed

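RNA from 9 libraries of sorted tumour macrophages (IN@OMVs, OMVs and Control, 3 each) was analysed from 1 deposited table. Per the labels, RNA was extracted with TRIzol and libraries were made with oligo-dT beads. The deposited values are expected counts per gene symbol, not normalised: 88.8% to 89.6% of a library's values were whole numbers, and the totals, 16813230 to 17288322, differed. Per the submitters' processing notes, the tools were BWA, Bowtie2 and RSEM and the builds mm9 and hg19, with neither versions nor roles, so no coordinates of the table's genes are given. The sources used here do not give whether strand was used.

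Rounded expected counts went into edgeR 4.0.16 under R 4.3.3 (filterByExpr, TMM factors 0.946 to 1.02, 1 mean per group over all 9 libraries, quasi-likelihood test, 6 residual degrees of freedom, biological coefficient of variation 0.131). P-values were adjusted by Benjamini-Hochberg over 13090 genes within each comparison. CPM are TMM-scaled, and log2 CPM for the likeness measure used a pseudocount of 0.5. The steps were tested on simulated data. DESeq2 1.42.0, limma-voom (limma 3.58.1), other scaling, other filters, a replicate block and leaving out each library were tried.

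The members and lists were chosen with earlier results of these data known. Named were all 10 members, up to 3 called genes of each list and comparison with the smallest p, and 3 genes most like each called member. Replicates of 1 group differed by more than sampling noise (chi-square per gene 2.04 to 40.2). IN@OMVs 1 differed most, at 40.2 from IN@OMVs 2 and 33.3 from IN@OMVs 3, whereas IN@OMVs 2 and 3 stood at 3.58. The pairs within OMVs ran from 5.43 to 13.6 and those within Control from 2.04 to 7.12. Replicate numbers carry no stated meaning in the labels. Deviations from the group means of same-numbered libraries correlated at 0.45, 0.33 and 0.16 for IN@OMVs and Control and at 0.55, 0.40 and 0.13 for OMVs and Control. Each was over 0.1, a cut with no test behind it, and the numbers were read as possible pairs there. Values not marked as with the block come from fits that did not pair the libraries. Libraries with different numbers correlated as highly in places (0.36 for IN@OMVs 2 and Control 3, 0.31 for IN@OMVs 3 and Control 2, 0.39 for OMVs 2 and Control 3), and the libraries numbered 1 stood apart. Same-numbered libraries of IN@OMVs and OMVs correlated at 0.02, 0.56 and -0.44 and were not read as pairs. The T cell marker sum was highest in the library numbered 1 of every group. Whether the numbers mark something shared by all groups was not tested. Promoter sequences are from RefSeq (GRCm38.p6), which matched 8 of the 10 genes, and transcript lengths from GENCODE M21.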

Additional observations from a re-analysis of the deposited data

How the results depend on the processing

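Ctsk was called lower in IN@OMVs than in Control under all 9 alternative settings and all 9 omissions of 1 library, with the smallest differences at -0.94 and -0.83 and adjusted p at most 0.0265. Against OMVs it was called in 8 of 9 settings and in 4 of 9 omissions (-0.90 to -0.70, adjusted p 0.0217 to 0.12), and lost with only the 6 libraries compared (-0.79, adjusted p = 0.0534). With the replicate block, Ctsk differed by -0.98 from Control (adjusted p = 0.00474) and by -0.77 from OMVs (adjusted p = 0.0202), no call among the 10 genes changed, and 20 genes were called for OMVs against Control instead of 55. Ctsl was called lower in IN@OMVs than in OMVs by DESeq2 (-0.42), with at least 10 CPM in at least 3 libraries (-0.43, adjusted p = 0.0455) and without OMVs 1 (-0.51, adjusted p = 0.0437). Leaving out 1 library gave 1 member called for IN@OMVs against Control, 0 for OMVs against Control and 0 to 1 for IN@OMVs against OMVs. In the last comparison DESeq2 and the stricter filter called 2 members each and the 6 libraries alone 0. With IN@OMVs 1 and OMVs 3 both left out, an alternative chosen after seeing the data, 2 members were called against Control and 2 against OMVs. These libraries were chosen by the levels of the members, so these counts are not a test of them.

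Over all genes, IN@OMVs against Control gave 858 calls, 393 to 1635 with 1 library left out, 519 with 6 libraries and 2416 with both left out. OMVs against Control gave 55 calls, 0 to 266 with 1 library left out, 207 by DESeq2, 36 by limma-voom, 115 with 6 libraries and 610 with both left out. IN@OMVs against OMVs gave 373 calls, 180 to 786 with 1 library left out, 646 by DESeq2, 195 with 6 libraries and 898 with both left out. The fits on fewer libraries have fewer samples, and the cause of the other differences was not tested.

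The differences that changed sign were all uncalled. With 1 library left out they ranged, for IN@OMVs against Control, from -0.11 to 0.076 (Ctsa), -0.012 to 0.11 (Ctsd), -0.085 to 0.16 (Ctsh), -0.018 to 0.21 (Ctsz) and -0.036 to 0.23 (Lgmn). For OMVs against Control they ranged from -0.12 to 0.036 (Ctsa), -0.12 to 0.13 (Ctsb), -0.094 to 0.12 (Ctsd), -0.047 to 0.17 (Ctsh), -0.0298 to 0.20 (Ctss) and -0.18 to 0.091 (Lgmn). For IN@OMVs against OMVs they ranged from -0.10 to 0.13 (Ctsa), -0.15 to 0.13 (Ctsc), -0.058 to 0.16 (Ctsd), -0.17 to 0.13 (Ctsh), -0.10 to 0.13 (Ctsz) and -0.017 to 0.32 (Lgmn). With both libraries left out the values against Control were -0.11 (Ctsa), -0.0056 (Ctsd), -0.078 (Ctsh), -0.011 (Ctsz) and -0.029 (Lgmn) in IN@OMVs and -0.12 (Ctsb), -0.093 (Ctsd), -0.045 (Ctsh) and -0.0285 (Ctss) in OMVs, and those between IN@OMVs and OMVs were -0.021 (Ctsc) and -0.019 (Ctsz). The stricter filter gave -0.0028 for Ctsa against Control and -0.012 for Ctsc against OMVs, and the 6 libraries alone -0.0094 for Ctsc. Of 30 calls named outside the 10 genes, 20 were kept with the block and 9 in every omission of 1 library, and 0 changed sign in any setting. In IN@OMVs against OMVs, where the numbers did not pair the libraries, the adjusted p with the block was 0.0989 for Ctns, 0.0981 for Flcn and 0.0679 for Rragc. Low counts limit the precision of Stfa2, with at most 16 counts in a library, and of neutrophil markers such as Ly6g, Ngp and Camp, which averaged 0.118, 0.161 and 0.122 CPM in IN@OMVs.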
